A study of Mus musculus with 6 samples.

Results

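The complement system is described here through 9 genes, C1qa, C1qb, C1qc, C3, C4b, Cfb, Cfi, Cd55 and Serping1, in kidneys of control and Nampt knockout mice. They were chosen as a family of complement components and regulators, and their probes were taken from the arrays by RefSeq accession. This gave 11 probes for the 9 genes, out of 55681 probes on the array, and all 9 were among the 15305 genes tested. Each of 6 male C57BL/6J mice gave whole-kidney RNA for 1 single-colour Agilent array. The genotype was labelled control for 3 of them and iNampt-conditional knockout for the other 3. Nampt encodes the rate-limiting enzyme of NAD salvage. The series title places the work in renal proximal tubules and in diabetic nephropathy. The Cre driver, the deleted exons, the age of the mice and any diabetic treatment are not given in the sources used here.

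Complement is a cascade of plasma and tissue proteins. In its classical branch C1q, built from the A, B and C chains, recognises immune complexes and dying cells, and its proteases cut C4 and C2. In the alternative branch factor B joins C3b and is then cut by factor D. Both branches form convertases that cleave C3, and the cascade ends in the membrane attack complex that starts from C5. Factor I, CD55 and C1 inhibitor hold it back. In tissues C1q comes mainly from macrophages and dendritic cells, while kidney tubule cells can make C3, C4 and factor B themselves.

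Nampt was at 2.78, 2.59 and 2.65 in the control animals and at 1.80, 1.50 and 1.53 in the knockouts. It fell by 1.06 ± 0.10 (log2 difference and SE, adjusted p = 0.0431 by limma). The knockouts lay below every control, but the call was lost without any 1 of controls 1, 2 and 3 or knockouts 2 and 3, when slide row (difference -0.87) or replicate number was a block, and with quantile normalisation. The adjusted p ran from 0.0088 to 0.18 over the 17 other settings. Values throughout are log2 of the scanner signal minus each array's 75th percentile, so 0 is that percentile, and levels of different genes are not compared because each probe has its own response. A difference is the knockout mean minus the control mean on that scale, given with its SE from limma after the sign ±. Spots well above background made up 57.3% to 63.3% of each array, least in knockouts 2 and 3. Those animals lay in row 2 of the slide, and knockout 1 lay in row 1 with the 3 controls. The kidney genes Slc34a1 and Umod were well above background on every array. The labels number the mice of each group separately, and having 3 per group limits the precision.

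By limma, 0 of the 9 genes had a Benjamini-Hochberg adjusted p under 0.05. Of all genes tested 0.17% did, 0.105% higher and 0.0653% lower in the knockouts. At an unadjusted p under 0.05 there were 3, C1qa, C1qc and C3, all higher in the knockouts, where 12.8% of all genes tested had such a p and 6.68% were higher with such a p. Without control 2, without control 3 or without knockout 2 only C1qa was left, where 9.34% to 10.1% of all genes had such a p. When slide row was a block all 3 were lost, and C4b, lower at -0.64, was the 1 of the 9 at such a p. In that fit 10.2% of all genes had such a p. All 3 knockouts lay above all 3 controls for 1 gene, C1qa, where 9.04% of genes tested did so and 19.5% did not overlap in either direction. With 1 animal left out the count, in either direction, was 5 without control 1, 3 without knockout 1 or without knockout 3, 2 without control 2 or without control 3, and 1 without knockout 2. The share of all genes under the same omissions was 26.0% to 33.9%. Of the 9 differences 8 were positive, against 47.1% of all genes, and their median was 0.25 on the log2 scale, against -0.0077 over all genes. Each of the 9 was well above background on all 6 arrays. Fewer cells of a type and less RNA per cell cannot be told apart in whole-kidney RNA.

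**Figure D1:**
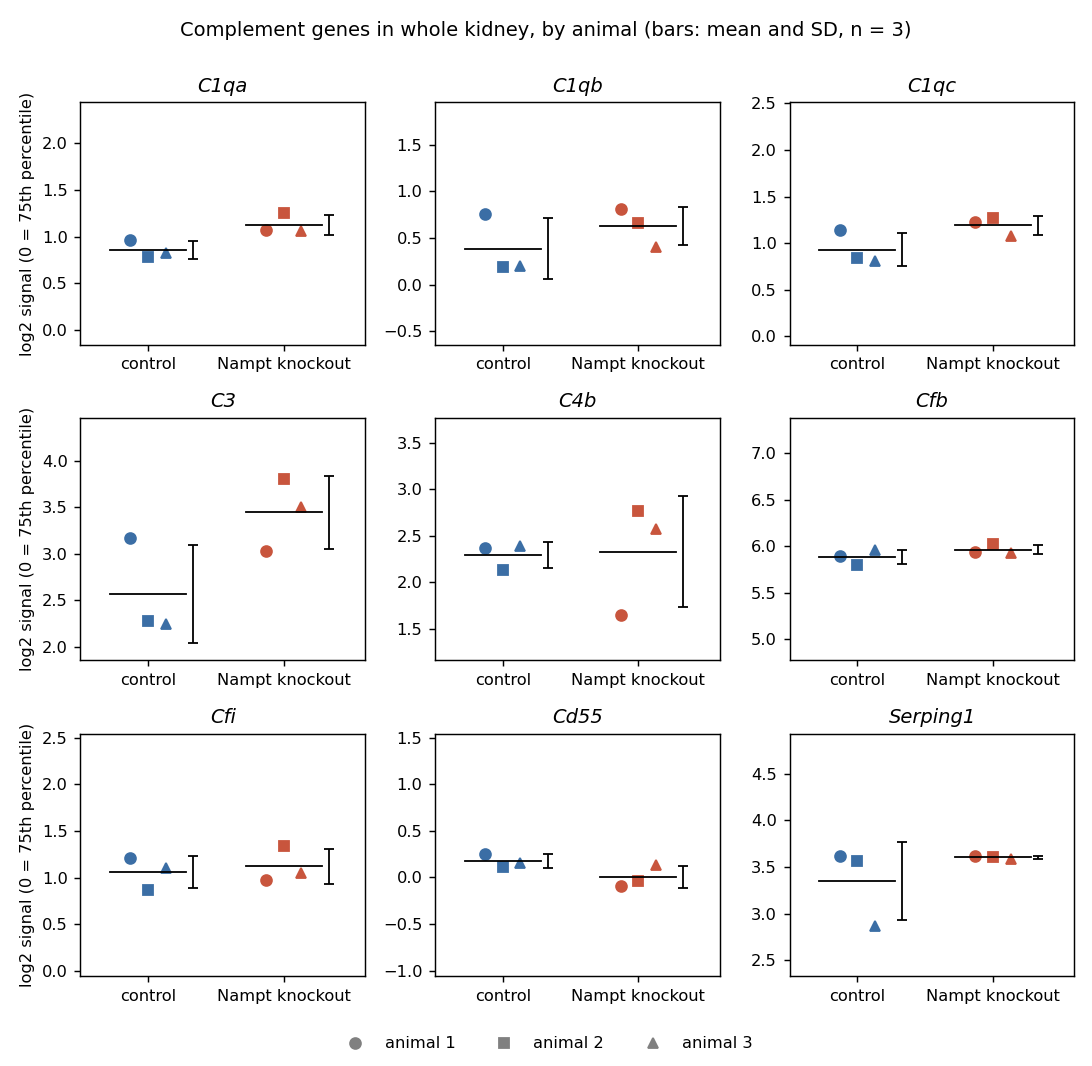
Each panel shows the log2 signal of 1 gene, relative to the array's 75th percentile, in 3 control kidneys (blue) and 3 Nampt knockout kidneys (red); all panels span the same number of log2 units, lines are means and bars SD (n = 3). The groups separate for C1qa only, and control 1 for C3 and C1qb, knockout 1 for C4b and control 3 for Serping1 stand away from the rest of their group.

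The C1q chains were between 1.19-fold and 1.21-fold higher on average in the knockouts. C1qa, the A chain gene, was at 0.96, 0.78 and 0.83 in the controls, in the order 1 to 3, and at 1.07, 1.25 and 1.06 in the knockouts, in the same order as throughout. The lowest knockout lay above the highest control, control 1, by less than the range within either group. The difference was 0.27 ± 0.08 (SE; 95% interval 0.08 to 0.46; limma adjusted p = 0.273), and 5.02% of the genes tested had a smaller p. C1qc, the C chain gene, was at 1.14, 0.84 and 0.81 in the controls and at 1.23, 1.27 and 1.07 in the knockouts. Its groups overlapped through control 1, which lay above knockout 3. The difference was 0.26 ± 0.11 (SE; interval 0.0009 to 0.52; limma adjusted p = 0.388). C1qb, the B chain gene, was at 0.76, 0.19 and 0.19 in the controls and at 0.81, 0.66 and 0.41 in the knockouts. Control 1 lay above knockouts 2 and 3, while controls 2 and 3 lay below every knockout. The difference was 0.25 ± 0.19 (SE; interval -0.21 to 0.70; limma adjusted p = 0.652). Without control 1 it was 0.44, and it was 0.15 without control 2, without control 3 or without knockout 1.

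For each of the 3 chains control 1 was the highest control and knockout 3 the lowest knockout. The highest knockout was knockout 1 for C1qb and knockout 2 for C1qa and C1qc. The C1qc probe is printed many times on the array, which gives the error of the spot itself: over the 7 to 9 usable spots per array the SD was 0.026 to 0.067 on the log2 scale. Between animals the SD was 0.18 in the controls and 0.10 in the knockouts (n = 3 each), larger than the spread between spots. The C1q genes lie side by side on chromosome 4 in the order C1qb, C1qc, C1qa in the RefSeq table of GRCm38.p6.

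Of 20 names on a list of macrophage markers 18 were tested and 0 passed. Of the 18, 16 had positive differences, against 47.1% of all genes, and all 3 knockouts lay above all 3 controls for 9, against 9.04% of all genes. The resident macrophage genes Cd163 and Timd4 were not well above background on all arrays of either group. The list's summed signal, in units of the array's 75th percentile, was 61.9 to 73.7 in the controls and 80.9 to 88.9 in the knockouts. Against the control mean the list stood at 0.22, -0.08 and -0.15 in the controls and at 0.30, 0.47 and 0.28 in the knockouts (mean log2). The mean of the C1q genes stood at 0.23, -0.12 and -0.11 in the controls and at 0.32, 0.34 and 0.12 in the knockouts. In the controls and knockout 1 the C1q mean and the list mean were within 0.041 of each other, while C1q was 0.13 below the list in knockout 2 and 0.16 below it in knockout 3. The part of the macrophage markers in the C1q differences was not tested. Among the macrophage genes, Laptm5 had a difference of 0.52 ± 0.10, the perforin-like gene Mpeg1 a difference of 0.51 ± 0.10, the invariant chain gene Cd74 a difference of 0.44 ± 0.10 and the growth factor receptor gene Csf1r a difference of 0.28 ± 0.06 (difference and SE; limma adjusted p from 0.162 to 0.203).

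Promoter sequence is shown for C1qb and C1qc, which are neighbours on the chromosome. The RefSeq promoter table of GRCm38.p6 held 4 of the 9 genes, C1qb, C1qc, C3 and Cd55. The 250 bases before the start are given, 5′ to 3′ along each gene, from chr4:136886201-136886450 for C1qb and chr4:136892915-136893164 for C1qc, both on the minus strand. Capitals mark matches, on either strand, to GGGA and CC with 4 bases between them for NF-kB, TTNNGNAA for C/EBP or GAGGAAG for PU.1.
C1qb: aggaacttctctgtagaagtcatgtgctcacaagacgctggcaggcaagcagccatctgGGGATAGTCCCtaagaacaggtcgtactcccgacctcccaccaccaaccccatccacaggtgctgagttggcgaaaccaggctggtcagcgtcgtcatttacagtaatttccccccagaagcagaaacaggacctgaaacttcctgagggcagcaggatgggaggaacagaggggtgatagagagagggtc
C1qc: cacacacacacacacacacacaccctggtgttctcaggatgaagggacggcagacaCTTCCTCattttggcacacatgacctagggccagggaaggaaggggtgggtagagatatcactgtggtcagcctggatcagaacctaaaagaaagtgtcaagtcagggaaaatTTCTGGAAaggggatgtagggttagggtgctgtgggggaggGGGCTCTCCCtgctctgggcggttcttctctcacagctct
C1qb held an NF-kB match on both strands, from -191 and from -190, which overlap each other. C1qc held a PU.1 match at -194 to -188, a C/EBP match at -81 to -74 and an NF-kB match at -40 to -31. Of all 32851 promoters in the table, the same stretch held the NF-kB letters in 17.6%, the C/EBP letters in 36.8% and the PU.1 letters in 10.6%. The STAT letters TTCNNNGAA, in 7.02% of promoters, and the ISRE letters, GAAA repeated after 2 bases, in 2.98%, were in 0 of the 4 stretches. The NF-kB letters were in 4 of the 4, at -61 to -52 in Cd55, the C/EBP letters in 2 and the PU.1 letters in 1. A match describes letters only.

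C3, the component on which all branches meet, differed most of the 9. It was at 3.17, 2.28 and 2.25 in the controls and at 3.02, 3.80 and 3.50 in the knockouts. Control 1 lay above knockout 1, so the groups overlapped, while controls 2 and 3 lay below every knockout. The control mean was 2.57 ± 0.52 and the knockout mean 3.44 ± 0.39 (SD, n = 3 each). The knockouts were 1.84-fold higher (95% interval 1.08 to 3.11), a log2 difference of 0.88 ± 0.31 (SE; limma adjusted p = 0.341), and 1.13% of the genes tested had a larger difference in either direction. It was 1.18 without control 1, and 0.46 when slide row was a block, a fit that sets knockout 1 against the controls of its row.

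C3 had 2 probes, and both put control 1 above knockout 1 and below knockouts 2 and 3. The probe used is spotted 10 times per array, with an SD between spots of 0.026 to 0.046, against an SD between animals of 0.39 or more. The other probe was at 2.51, 1.80 and 1.80 in the controls and at 2.42, 2.99 and 2.72 in the knockouts, a difference of 0.67 ± 0.24 (SE). Markers of injured tubule stood at 0.03, -0.0051 and -0.03 in the controls and at 0.40, 1.01 and 0.996 in the knockouts (mean log2 over 12 genes against the control mean). C3 on that scale stood at 0.60, -0.29 and -0.32 in the controls and at 0.46, 1.23 and 0.94 in the knockouts. Knockouts 2 and 3 were thus highest on both, and control 1 was high for C3 and not for this list. Control 1 was also the highest control for the macrophage list, at 0.22, and the fibroblast list, at 0.36. For the proximal tubule list it was not, at -0.03. The summed signal of the 12 genes was 122 to 148 in the controls and 141 to 149 in the knockouts. Of the 12, 11 had positive differences and 1 passed, Hbegf, an EGF receptor ligand, with a difference of 0.60 ± 0.06 (limma adjusted p = 0.0458), where 0.17% of all genes passed. The Hbegf call was lost without any 1 of the 6 animals and when slide row or the replicate number was a block, with adjusted p up to 0.208. Havcr1, which encodes KIM-1, had a difference of 3.71 ± 0.65 (adjusted p = 0.138). The part of these markers in the C3 difference was not tested.

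The C3 stretch is shown because this gene differed most, and it comes from chr17:57228137-57228386 on the minus strand, with the same letters in capitals.
C3: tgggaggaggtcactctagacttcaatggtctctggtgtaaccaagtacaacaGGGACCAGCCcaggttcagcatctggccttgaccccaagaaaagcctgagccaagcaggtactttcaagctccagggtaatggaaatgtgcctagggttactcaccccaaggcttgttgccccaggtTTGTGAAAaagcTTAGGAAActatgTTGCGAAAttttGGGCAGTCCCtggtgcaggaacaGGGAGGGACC
It held 3 C/EBP matches within 70 bases of the start, at -70 to -63, -58 to -51 and -45 to -38, the last on both strands. It held NF-kB matches at -197 to -188, -33 to -24 and -10 to -1.

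Cfb, which encodes factor B, the protease partner of C3b, varied little between animals. It was at 5.89, 5.80 and 5.96 in the controls and at 5.94, 6.02 and 5.93 in the knockouts. The groups overlapped, with control 3 above 2 of the knockouts. The difference was 0.08 ± 0.06 (SE; limma adjusted p = 0.642), a 1.06-fold ratio with a 95% interval of 0.956 to 1.17. It was 0.04 without control 2, 0.05 without knockout 2 and 0.13 with normexp and quantile normalisation. Cfp, the gene of properdin, which stabilises the alternative convertase, had a difference of 0.20 ± 0.11 (adjusted p = 0.497).

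Cfd, which encodes factor D, also called adipsin for its production in fat, varied widely from animal to animal. It was at 4.52, 3.02 and 4.03 in the controls and at 2.56, 1.20 and 4.46 in the knockouts. Knockout 3 lay beside control 1, and the other 2 knockouts below every control. The difference was -1.11 ± 0.85 (SE; limma adjusted p = 0.656). Adipocyte markers stood at 0.47, -0.50 and 0.03 in the controls and at -1.31, -1.90 and 0.35 in the knockouts against the control mean. Their summed signal was 32.0 to 45.6 in the controls and 19.4 to 41.9 in the knockouts, and 7 of 8 names were tested, with 0 passing and Lep not well above background. The 6 animals had the same order for Cfd and for the list mean, control 1 at the head and knockout 2 last. The part of these markers in the Cfd values was not tested.

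C4b, the C4 gene of the classical branch, was at 2.36, 2.13 and 2.39 in the controls and at 1.65, 2.76 and 2.58 in the knockouts. Knockout 1 lay below every control and knockouts 2 and 3 above every control. The difference of 0.04 ± 0.29 (SE; interval -0.68 to 0.75; limma adjusted p = 0.974) therefore averages opposite deviations, -0.64 in knockout 1 and 0.37 in knockouts 2 and 3. Its sign turned without control 2, without knockout 2 and without knockout 3, and when slide row was a block. C4a, a near-identical neighbour, had no matched probe, and whether its transcripts bind the C4b probe was not tested.

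The other classical genes had small differences. C2, the partner of C4b in the convertase, was at 4.22, 4.23 and 4.37 in the controls and at 4.43, 4.52 and 4.40 in the knockouts. All knockouts lay above all controls, by 0.18 ± 0.06 (SE; limma adjusted p = 0.349). The C1 protease genes C1s1 and C1s2 had differences of 0.14 ± 0.19 and 0.14 ± 0.20, and C1rb a difference of 0.06 ± 0.14. C1s1 and C1s2 are close copies and so are C1ra and C1rb, so their values are uncertain as separate measurements. All 9 classical genes tested had positive differences with a median of 0.14, and 0 passed.

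**Figure D2:**
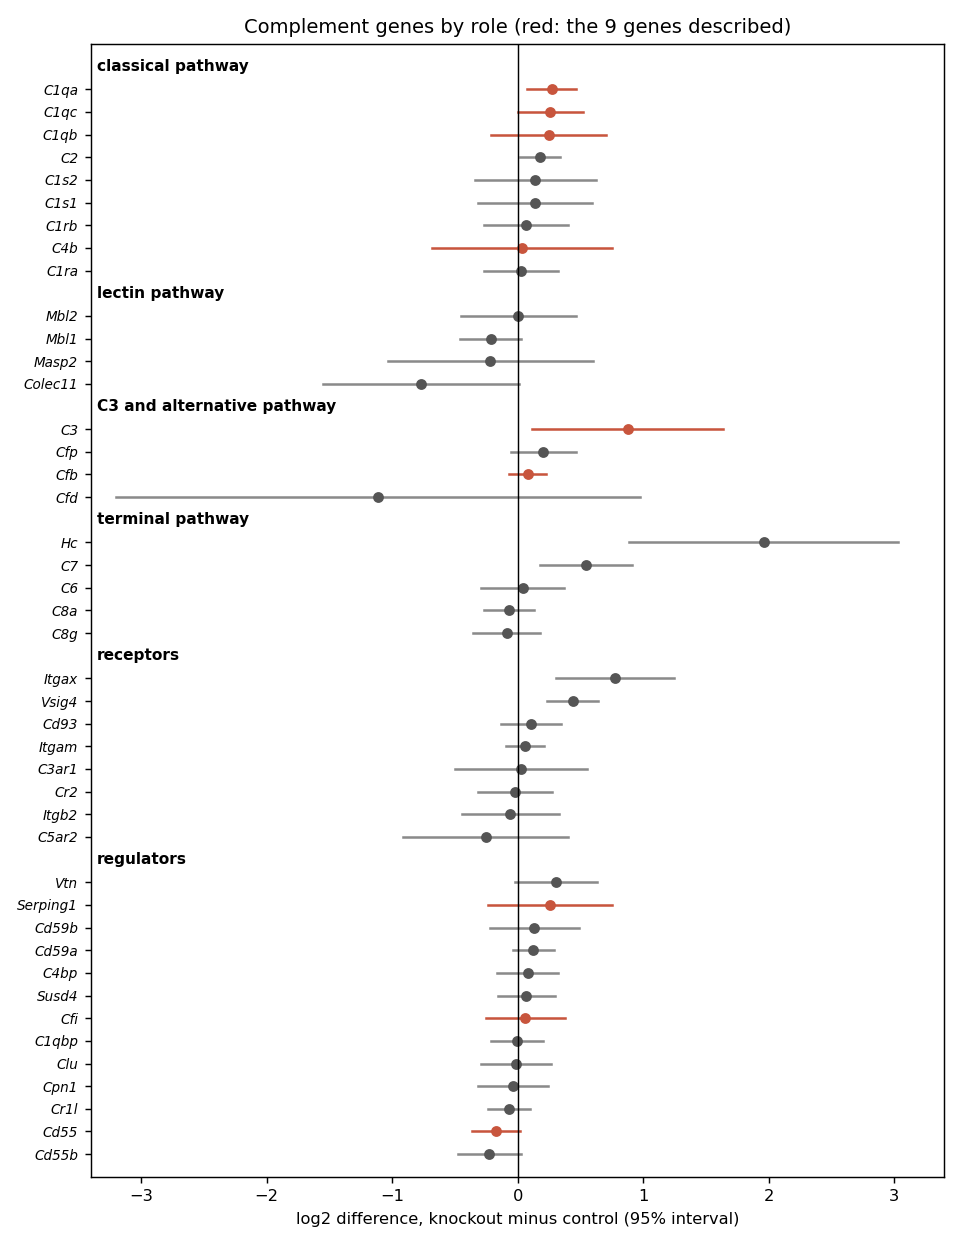
Points are log2 differences (knockout minus control) and lines their 95% intervals from limma for 43 of the 45 complement genes tested, grouped by role, with the 9 genes described in red. Of the 45, 30 had positive differences and 0 passed the adjusted threshold. Hc, which passed the detection filter only through the knockouts, and C3 are far to the right, and Cfd has the widest interval.

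Serping1 encodes C1 inhibitor, which blocks the C1 proteases. It was at 3.62, 3.57 and 2.87 in the controls and at 3.62, 3.61 and 3.59 in the knockouts. All animals but control 3 lay between 3.57 and 3.62. The difference of 0.26 ± 0.20 (SE; limma adjusted p = 0.666) was 0.01 without control 3. Its other probe gave the same picture, with control 3 at 1.72 and the other 5 animals between 2.42 and 2.61.

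Control 3 was also the lowest animal for the C1 protease gene C1s1. It was at 1.34 there and between 1.72 and 2.01 in the other animals. Fibroblast markers were lowest in control 3 as well, at -0.44 against the control mean, with 0.36 in control 1 and 0.08 in control 2, while the knockouts were at 0.10, 0.49 and 0.13. The 10 fibroblast genes had a summed signal of 38.5 to 64.0 in the controls and 52.7 to 66.5 in the knockouts, and 0 passed. Their part in these values was not tested.

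**Figure D3:**
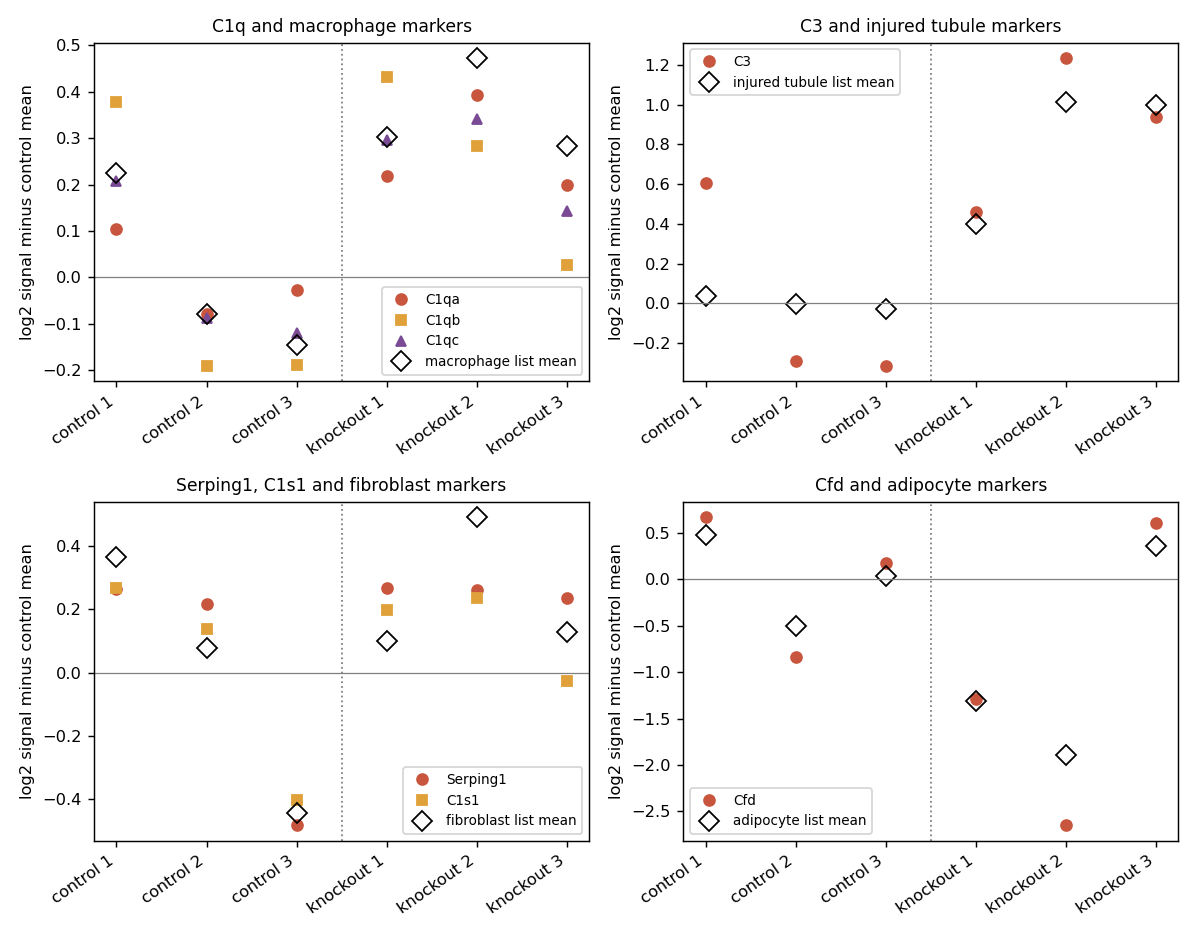
Each panel plots, for the 6 animals, complement genes (filled) and the mean of a marker list (open diamonds) as log2 signal minus the control mean, with a dotted line between controls and knockouts. C1q and macrophage markers are both high in control 1, Serping1, C1s1 and fibroblast markers are all low in control 3, and Cfd and adipocyte markers are both lowest in knockout 2. C3 and injured tubule markers are both highest in knockouts 2 and 3, while control 1 is high for C3 and not for that list.

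Cfi encodes factor I, the protease that inactivates C3b and C4b. It was at 1.21, 0.87 and 1.11 in the controls and at 0.98, 1.33 and 1.05 in the knockouts. The groups overlapped, with 2 knockouts within the range of the controls, and the difference was 0.06 ± 0.13 (SE; interval -0.25 to 0.37; limma adjusted p = 0.882). Its sign turned without control 2, without knockout 2 and with slide row as a block.

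Cd55 encodes decay-accelerating factor, which takes convertases apart on the cell surface, and was the only 1 of the 9 with a lower mean in the knockouts. It was at 0.26, 0.11 and 0.15 in the controls and at -0.09, -0.04 and 0.14 in the knockouts. Knockouts 1 and 2 lay below every control and knockout 3 lay above control 2. The difference was -0.17 ± 0.08 (SE; interval -0.36 to 0.02; limma adjusted p = 0.434). Its neighbouring copy Cd55b had a difference of -0.22 ± 0.10 (adjusted p = 0.434), and the probes of such close copies may share transcripts. Among other membrane regulators, Cd59a, which stops the membrane attack complex, had a difference of 0.13 ± 0.07 and Cr1l, which encodes the rodent regulator Crry, had a difference of -0.07 ± 0.07. Vtn, the gene of vitronectin, had a difference of 0.30 ± 0.13 (adjusted p = 0.422). Of 20 regulator names 15 were tested, with 9 positive and 6 negative differences, a median of 0.06 and 0 that passed.

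The wider list of complement names, fixed by role, held 58 names, of which 56 had a probe and 45 were tested. By limma 0 passed. At an unadjusted p under 0.05 there were 8 higher and 0 lower, against 6.68% and 6.13% of all genes. Groups did not overlap for 6 that were higher and 1 that was lower, against 9.04% and 10.5% of all genes. Hc, which passed the filter only through the knockouts, counts among the 8 and among the 6. The 45 include the 9 genes, so C1qa, C1qc and C3 are among the 8, and C1qa is among the 6. Of the 36 others, 5 were higher and 0 lower at an unadjusted p under 0.05, Hc among the 5. The median difference was 0.06 over the 45 and 0.03 over the 36.

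In the terminal pathway, Hc, which encodes C5, had the largest difference, but it passed the filter only through the knockouts. It was at -5.63, -5.55 and -4.70 in the controls and at -4.13, -2.61 and -3.24 in the knockouts, with the probe well above background on 2 control arrays and on all 3 knockout arrays. Every knockout lay above every control, and the difference was 1.96 ± 0.44 (SE; limma adjusted p = 0.204). The filter favours a gene seen in the higher group and the control levels lay near background, so this difference is uncertain. C7, which extends the attack complex, was at -4.10, -4.07 and -4.03 in the controls and at -3.67, -3.18 and -3.73 in the knockouts, 0.54 ± 0.15 apart (adjusted p = 0.255). C8a and C8g had differences of -0.07 ± 0.08 and -0.09 ± 0.11. C8b and C9 were not well above background on any array.

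Among complement receptors, Vsig4, a C3b receptor of resident macrophages, was at -4.81, -4.83 and -4.82 in the controls and at -4.44, -4.50 and -4.21 in the knockouts. The knockouts lay above all controls, by 0.44 ± 0.08 (SE; limma adjusted p = 0.156). Vsig4 was well above background on every array. Its levels were low on this scale, and how near the control levels lay to the limit of their own arrays was not worked out. The size of this difference is therefore uncertain. Itgax, which encodes the alpha chain of complement receptor 4 and marks dendritic cells and macrophages, was at -0.87, -1.37 and -1.60 in the controls and at -0.61, -0.34 and -0.55 in the knockouts, 0.78 ± 0.19 apart (adjusted p = 0.225). Cd93 had a difference of 0.11 ± 0.10 and the C5a receptor gene C5ar2 a difference of -0.25 ± 0.27. Of 9 receptor names 8 were tested, 5 of them positive, and 0 passed.

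In the lectin pathway, which starts from sugar-binding proteins, 4 of 8 names were tested and 3 of the 4 were lower. Colec11, a collectin made in the kidney, was at -0.41, -1.14 and -1.70 in the controls and at -1.92, -1.66 and -1.97 in the knockouts. Knockout 2 lay above control 3, and the difference was -0.77 ± 0.32 (SE; limma adjusted p = 0.397). Mbl1, a mannose-binding lectin gene, was at -1.81, -1.87 and -1.52 in the controls and at -1.96, -1.90 and -1.97 in the knockouts, all below the controls by a small margin (-0.21 ± 0.10; adjusted p = 0.441). Mbl2 had a difference of 0.0036 ± 0.19 and the protease gene Masp2 a difference of -0.22 ± 0.33. C4bp, a fluid-phase regulator, was well above background on the 3 control arrays and on 0 knockout arrays. No fold is given for it, since its control mean of -5.13 lay below -4.84, the bound put on its knockout level. That bound averages, over the knockout arrays, the higher of its own value and the array's lowest signal well above background.

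The genes whose centred values lay nearest to those of C3 over the 6 animals, of 15303 genes ranked, were Slamf8, Ccl28, Mrc1 and Vwa1. Their root-mean-square differences from C3 were 0.11, 0.13, 0.14 and 0.14 on the log2 scale, where C3 itself varied by 0.58. Slamf8 and the mannose receptor gene Mrc1 are expressed by macrophages, and Ccl28 encodes an epithelial chemokine. Nearest to C1qb were Gm4951, Pak1, Kif21b and Pik3cg, at 0.052 to 0.067, where C1qb varied by 0.25. C1qc ranked 42 and C1qa 509 in that order. These are descriptions over 6 animals.

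**Figure D4:**
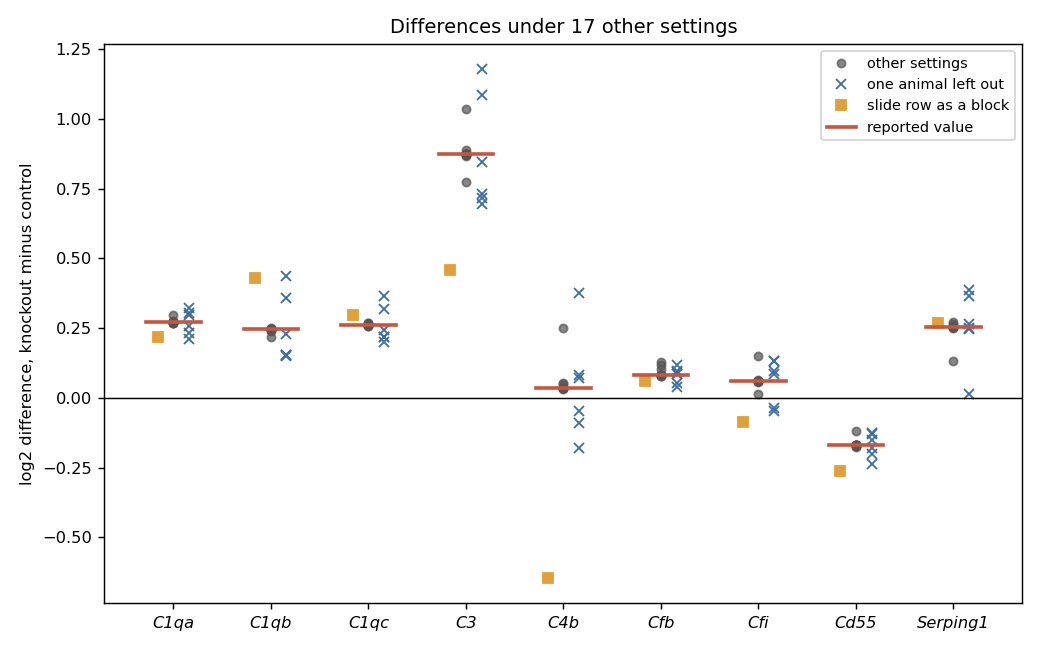
For each of the 9 genes the red line is the reported log2 difference, grey circles other normalisations, filters and variance models, crosses fits without 1 animal, and the square the fit with slide row as a block. C4b and Cfi cross 0, Serping1 comes close to 0 without control 3, and C3 stays above 0 with its lowest value, 0.46, under the slide row block.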

How the data were processed

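Kidney total RNA, 1 sample for each of 6 mice, was measured on SurePrint G3 Mouse GE 8x60K arrays after Cy3 labelling, per the labels. Per the file headers, the authors obtained each spot's intensity and its flags with Agilent Feature Extraction 10.7.1.1. Slide row is the array position in the names of the deposited files. The deposited table of the authors holds a linear ratio, equal within 1% to each array's processed signal over a constant for the probes compared (those above 1), and was an alternative.

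Outlier spots were left out, spots of a probe averaged on the log2 scale and the 75th percentile subtracted. A probe was kept when every array of 1 group or of both had it well above background (32948 probes). Accessions named 28020 probes through the RefSeq table of GRCm38.p6, used for names and gene order, while the array's probe positions are on mm9. The probe with the highest mean stood for a gene. Groups were compared by limma 3.58.1 (lmFit, eBayes) in R 4.3.3, group as the only term, with Benjamini-Hochberg adjustment over 15305 genes. An exact permutation test of 3 against 3 cannot go below p = 0.1. The fit was run on simulated data with independent noise and no slide row effect. That run checked the size of the estimates and not the calls made here. Some genes of the lists count in the totals but are not reported here by name. Python 3.11.15, pandas 2.3.3 and matplotlib 3.10.9 were used.

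The members, lists and rules were chosen with earlier results of these data known. Named genes are Nampt, the 9 members, up to 4 of smallest p per list described, complement genes seen in 1 group only, and the 4 nearest to C3 and to C1qb. Alternatives were quantile normalisation, median scaling, normexp (offset 50, on median spot signals, as the files have no mean signal) with quantile normalisation, the authors' ratios, no filter, detection required on all 6 arrays, a gene's probes averaged, array weights, a robust variance with a trend, a block for replicate number or for slide row, and each array left out in turn.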

Additional observations from a re-analysis of the deposited data

How the results depend on the processing

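In all 17 other settings 0 of the 9 genes and 0 of the wider complement list passed. The C1qa, C1qb, C1qc, C3, Cfb and Serping1 differences stayed positive and the Cd55 difference negative. C4b was at -0.64 and Cfi at -0.085 when slide row was a block. Without 1 array C4b lay between -0.18 and 0.37 (-0.047 without control 2, -0.089 without knockout 3) and Cfi between -0.046 and 0.13 (-0.036 without control 2). The count at an unadjusted p under 0.05, 3 as reported, was 1 when slide row was a block, where 10.2% of all genes had such a p. The gene was then C4b, lower, and none of C1qa, C1qc and C3. C1qc was not at such a p with quantile normalisation, median scaling, the authors' ratios or no filter. In those fits 12.4% to 19.9% of all genes had such a p. Cfb, higher, was at such a p with quantile normalisation (14.2% of all genes) and with normexp and quantile normalisation (13.2%). Without 1 array the count was 1 to 4, where 8.99% to 14.1% of all genes had such a p. C1qa was among them each time, C4b joined without knockout 1, C1qb without control 1 and Cd55, lower, without knockout 3. The count of genes whose groups did not overlap, 1 as reported, was 2 with quantile normalisation, 3 with normexp and quantile normalisation, and 1 to 5 without 1 array. Slide row holds both groups only through knockout 1, so the row and the group cannot be told apart for knockouts 2 and 3. Same-numbered animals did not deviate together over all genes (correlations of 0.10, -0.096 and -0.025). The labels give them only a shared number, and so few animals cannot exclude a pairing. With the replicate block 2 of the 9 were at an unadjusted p under 0.05, 0 passed, and all genes called went from 26 to 0. They were also 0 without control 2 or without control 3, 1 without knockout 2 or without knockout 3, 34 without control 1 and 57 without knockout 1, and 11 with quantile normalisation, 16 when slide row was a block, 57 with a robust variance with a trend, 77 of 21150 genes with no filter and 89 with array weights. Nampt and Hbegf each passed in 9 of the 17 settings. Nampt was lost with quantile normalisation too (adjusted p = 0.058 by limma). The 6 arrays limit what can be detected: the 95% interval reached 3.11-fold for C3 but 1.17-fold for Cfb.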

Other observations

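Lists of signals known to induce complement, with their transducers and responding genes, were split in direction. Whether any such signal acted in these kidneys was not tested. Of 15 interferon response names 14 were tested, 6 positive and 8 negative, with a median of -0.01 and 0 that passed by limma. At an unadjusted p under 0.05 there was 1, where 12.8% of all genes tested had such a p. Isg15, a ubiquitin-like interferon target, had a difference of -0.29 ± 0.11 (limma adjusted p = 0.359), Tap1 a difference of 0.25 ± 0.15 and Usp18 a difference of -0.13 ± 0.09. Of 18 acute phase, IL-6 and NF-kB names 14 were tested, 8 positive and 6 negative, and 0 passed. There were 3 at an unadjusted p under 0.05, against the same 12.8% of all genes. A gene among the 6 negative ones passed the detection filter only through the controls. Lcn2 had a difference of 1.12 ± 0.21 and Tnfaip3, a brake on NF-kB, had a difference of 0.41 ± 0.11, while the cytokine gene Il1b had a difference of -0.84 ± 0.21 (limma adjusted p from 0.156 to 0.260). Lcn2 is also on the injured tubule list, and Hp is also on the hepatocyte list. Il6 and Tnf were not well above background on all arrays of either group.

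Other marker lists had 0 genes that passed by limma. The median difference was 0.02 over 13 proximal tubule genes, 0.0053 over 10 distal genes, 0.04 over 8 podocyte and mesangium genes and -0.0035 over 9 endothelial genes. It was 0.03 over 8 T, NK and B cell genes, -1.16 over 5 neutrophil genes and -0.71 over 6 red cell genes. The neutrophil median is the value of a gene that passed the detection filter only through the controls. Of the 5 neutrophil genes 2 had positive and 3 negative differences. A B cell gene also passed the filter only through the controls. Hepatocyte genes, a list for the liver, the main source of plasma complement, had a median of -0.07 over the 8 tested.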
